A study of Danio rerio with 31 samples.

Results

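The comparison set the midbrain of Nadia zebrafish, a wild population, against the midbrain of Scientific Hatchery zebrafish, a domesticated population. It used 8 of the 31 arrays of the series, chosen by their labelled tissue and strain: 4 Nadia arrays (2 males and 2 females) and 4 Scientific Hatchery arrays (1 male and 3 females). Each array carried RNA of an individual fish aged 1 year with the treatment label "control". No treatment, genotype or allele differs between the groups by the labels other than the strain. The series also holds midbrain arrays of Pargana North, a second wild population, and of Transgenic Mosaic 1, a second domesticated one, with 4 arrays each. It further holds telencephalon arrays of all 4 populations, among them 4 of Nadia and 3 of Scientific Hatchery. Transgenic Mosaic 1 is called transgenic by its name, and its transgene is not given in the sources used here.

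The teleost midbrain consists mainly of the optic tectum, a layered structure that receives input from the retina and steers orienting and escape movements, and of the tegmentum beneath it. Domestication of fish is known to be accompanied by changes in boldness, feeding and growth, and wild and hatchery stocks also differ genetically through founder effects and drift. A difference between a single wild and a single domesticated population therefore belongs to these populations, and domestication and population of origin cannot be told apart in it. Whole tissue was measured, so fewer cells of a type and less RNA per cell cannot be told apart either.

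Expression is given as log2 values, so that a difference of 1 is a 2-fold difference. All differences are Nadia minus Scientific Hatchery, adjusted for sex, from limma, with their standard errors (SE). A gene is said to have passed, risen or fallen when its Benjamini-Hochberg adjusted p over all 15648 genes was under 0.05. The p-values measure the spread between these fish within each population. The 8 arrays had medians between 9.62 and 9.74, and across genes, which are not independent replicates, the correlation between arrays was 0.970 to 0.981 between the populations, 0.979 to 0.985 within Nadia and 0.976 to 0.987 within Scientific Hatchery. The array of Hatchery fish M57, the only Hatchery male, had the lowest mean correlation with the others (0.974). All 10 midbrain markers measured, among them BARHL1, GATA3, TFAP2B and OTX2, were higher in these 8 arrays than in the 7 telencephalon arrays of the same populations, with medians of 12.2 and 7.17. Of 9 telencephalon markers 1, EMX2, was higher in midbrain, and so were 5 of 6 cerebellum markers (medians 12.7 and 9.26), so the samples held transcripts of adjoining tissue as well.

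In Nadia midbrain 9 genes were higher and 14 lower than in Scientific Hatchery midbrain, 0.147% of the genes tested (0.0575% higher and 0.0895% lower). All 23 differed by at least 2-fold, up to 64.3-fold, and in all 23 the 4 Nadia values lay apart from the 4 Hatchery values. Such separation was found in 6.63% of all genes, 527 higher (3.37%) and 510 lower (3.26%) in Nadia. The largest decreases with a gene name were those of 2 MHC class II genes and of cox7a1, a respiratory chain subunit, and the largest increases those of gata1b and mfap4.7. An unadjusted p under 0.05 was reached by 1679 genes (10.7%), and 11 genes passed at an adjusted p under 0.01. The ratio of higher to lower calls depended on scaling: it was 14 to 14 after shifting the arrays to the same median and 15 to 14 after quantile normalization. Leaving out 1 array gave between 16 calls (without Hatchery M57, with 11 of the 23 among them) and 27 calls (without Nadia M98). M57 was the only Hatchery male, so with the sex term a difference without it rests on the females of both groups. Results without M57 therefore reflect more than the loss of a single array.

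**Figure D1:**
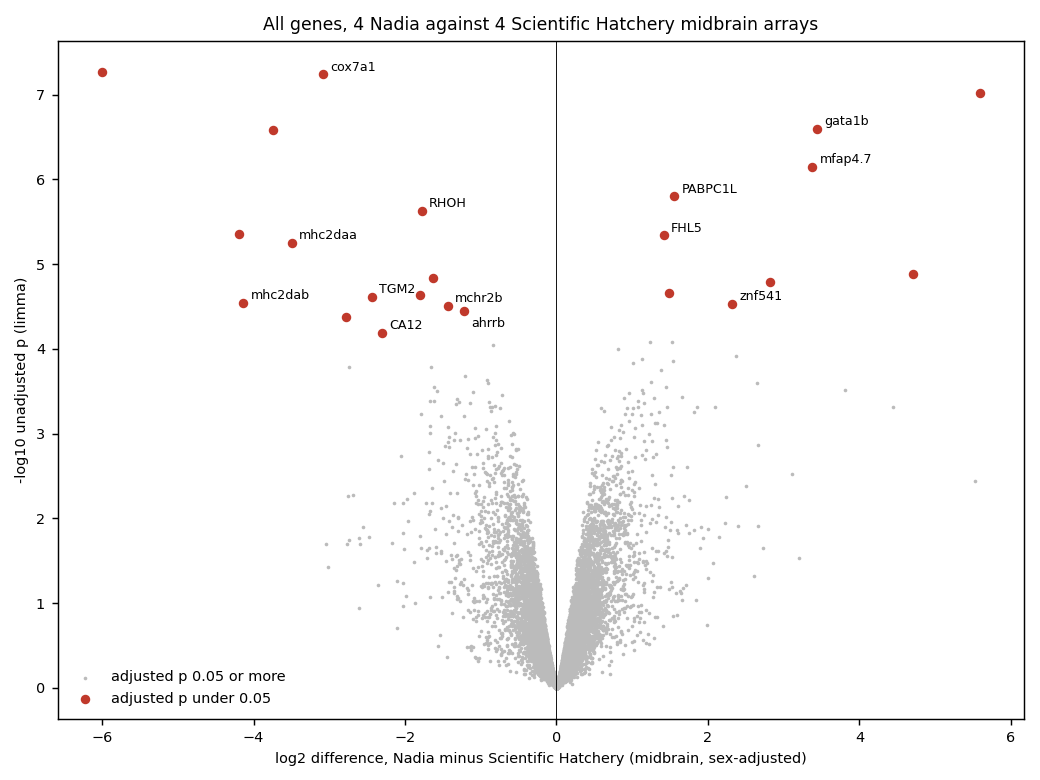
Log2 difference between Nadia and Scientific Hatchery midbrain (x axis) against the -log10 unadjusted p of limma (y axis), 1 point per gene for 15648 genes. The 23 red points passed, 9 on the Nadia side and 14 on the Hatchery side, and those with a gene name are labelled.

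In the following, 4 Nadia values stand in the order of arrays M98 (male), M7 (female), M130 (female) and M106 (male), and 4 Hatchery values in the order of arrays M57 (male), M47, M123 and M119 (females), as the titles number them. Values between 4 and 5 lie near the low end of the scale, where the 5th percentile of all values on these arrays is 4.56, and no detection calls were used.

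MHC class II molecules present peptides from outside the cell to helper T cells, and in the brain they are carried mainly by microglia and other leukocytes. The class II gene mhc2daa had values of 8.09, 8.11, 7.94 and 6.80 in Nadia and of 11.60, 11.40, 11.02 and 11.06 in Scientific Hatchery. For mhc2dab the values were 6.78, 6.26, 8.24 and 6.36 in Nadia and 11.48, 11.52, 10.71 and 10.63 in Scientific Hatchery. Every Hatchery fish was high and every Nadia fish low for both genes, and the groups lay far apart. mhc2daa fell by 3.50 (SE 0.32, adjusted p = 0.0080) and mhc2dab by 4.14 (SE 0.48, adjusted p = 0.024). The call of mhc2daa was lost without Hatchery M57 (adjusted p = 0.053), and that of mhc2dab in 6 of 8 fits that left out an array (adjusted p up to 0.14). Over the 8 fits that each left out an array, the difference of mhc2daa lay between -3.65 and -3.13 and that of mhc2dab between -4.80 and -3.71. Class II genes are a family of similar and polymorphic copies, so the values are those of the sequences on the array and may join or miss copies.

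Nadia stood apart from the other 3 populations for both class II genes. The Pargana North means were 11.67 for mhc2daa and 11.55 for mhc2dab, and the Transgenic Mosaic 1 means 11.40 and 10.87. Of 29 MHC and antigen presentation genes measured, 2 fell, none rose, and the median difference was 0.06, against 0.01 over all genes. The invariant chain genes cd74a and cd74b, whose products escort class II molecules to the compartment where they are loaded, had differences of 0.37 (SE 0.16, adjusted p = 0.48) and 0.25 (SE 0.16, adjusted p = 0.65). The class I gene mhc1uba read 11.02 in Hatchery M47 and 4.14 to 4.72 in the other 7 fish, so a single fish had a high value. These 3 genes were chosen after their values were seen.

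None of 23 microglia and leukocyte genes passed (median difference 0.03), and their mean level per array was 7.55 to 8.06 in Nadia and 7.72 to 7.97 in Scientific Hatchery, so the groups overlapped. The list's largest difference was that of ctss2.2, a cathepsin S gene, at -2.74 (SE 0.41, adjusted p = 0.078). Its relative ctss2.1 went the other way, at 1.29 (SE 0.32, adjusted p = 0.23), with groups that overlapped. SPI1, the PU.1 factor of myeloid cells, had a difference of 0.61 (SE 0.15, adjusted p = 0.23). RHOH, which encodes a small GTPase of blood cells that in mammals is needed for T cell receptor signalling, did pass. Its values were 7.71, 7.62, 7.84 and 7.63 in Nadia and 9.68, 9.30, 9.22 and 9.60 in Scientific Hatchery. Both groups were tight and apart, with a difference of -1.78 (SE 0.15, adjusted p = 0.0046), and the call held with each array left out (adjusted p up to 0.045). The RHOH means of Pargana North (8.19) and Transgenic Mosaic 1 (8.33) lay between those of Nadia (7.70) and Scientific Hatchery (9.45). Every Hatchery fish lay above the fish of Pargana North (7.30 to 8.98) and Transgenic Mosaic 1 (8.20 to 8.54). Every Transgenic Mosaic 1 fish also lay above every Nadia fish.

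cox7a1 encodes a subunit of cytochrome c oxidase, the last complex of the respiratory chain, and in mammals it is the form of heart and skeletal muscle. Its values were 9.18, 9.45, 8.97 and 9.15 in Nadia and 12.47, 12.01, 12.21 and 12.30 in Scientific Hatchery. All Hatchery fish were high and all Nadia fish low, with little spread within either group. The gene fell by 3.09 (SE 0.15, adjusted p = 4.5e-04), an 8.50-fold difference, and passed with each array left out (adjusted p up to 0.0067). Pargana North (9.25) and Transgenic Mosaic 1 (9.26) had means like that of Nadia (9.19). Of 62 oxidative phosphorylation genes measured, cox7a1 alone passed, and the median difference was 0.02. ATP5F1B, of the ATP synthase, differed by 0.27 (SE 0.11, adjusted p = 0.41) and NDUFA10, of complex I, by 0.30 (SE 0.13, adjusted p = 0.47).

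Skeletal muscle genes moved with 1 of the Hatchery arrays. The mean level of 20 muscle genes was 8.49 in Hatchery M57 and 6.47 to 6.66 in the other Hatchery fish, and 6.12 to 7.58 in Nadia. The cox7a1 values were 12.01 to 12.30 in the other 3 Hatchery fish and 8.97 to 9.45 in Nadia. The part of muscle content in the cox7a1 difference was not tested. None of the 20 muscle genes passed (median difference -0.55).

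**Figure D2:**
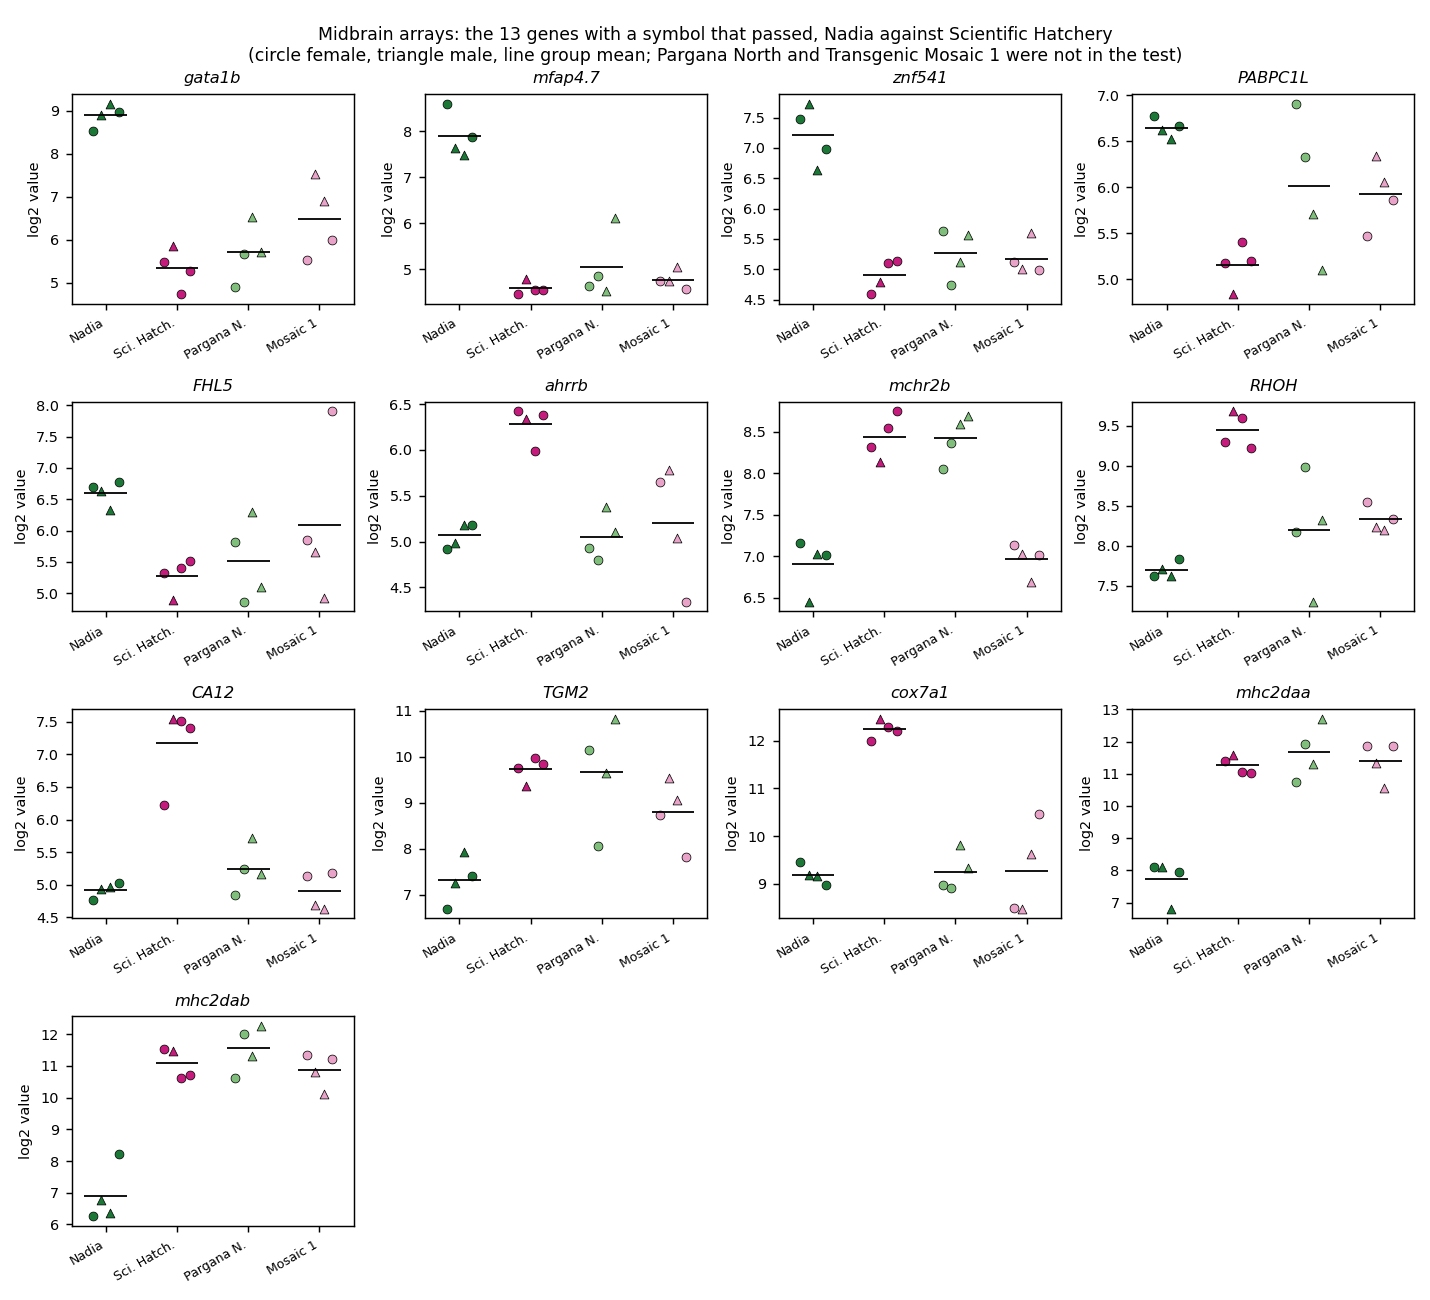
Log2 values (y axes, each with its own range) of the 13 named genes that passed, on the 16 midbrain arrays by population, with circles for females, triangles for males and lines for group means. Nadia and Scientific Hatchery do not overlap in any panel. Pargana North and Transgenic Mosaic 1, which were not in the test, lie near Scientific Hatchery for mhc2daa and mhc2dab and near Nadia for cox7a1 and CA12.

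Among the increases with a gene name that of gata1b was the largest. GATA factors bind DNA through zinc fingers, and GATA1 drives red blood cell formation in vertebrates. The gata1b values were 8.91, 8.52, 8.96 and 9.16 in Nadia and 5.84, 5.49, 5.28 and 4.73 in Scientific Hatchery, all Nadia fish being high. The difference was 3.44 (SE 0.21, adjusted p = 8.2e-04), or 10.8-fold, and passed with each array left out (adjusted p up to 0.0091). Pargana North (4.90 to 6.52) and Transgenic Mosaic 1 (5.52 to 7.53) lay below every Nadia fish. The red blood cell genes themselves went the other way without passing. All 8 had a difference below 0 (median -0.32). 3 of the 8 (37.5%, against 6.63% of all genes) were without overlap, namely RHAG (-1.09, SE 0.26, adjusted p = 0.21), klf1 (-0.62, SE 0.16, adjusted p = 0.25) and epb41b (-0.61, SE 0.17, adjusted p = 0.26), which was named after its values were seen. Their mean level per array was 7.93 to 8.21 in Nadia and 8.35 to 8.54 in Scientific Hatchery, and the part of blood content in any result was not tested.

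mfap4.7 belongs to a group of similar fibrinogen-domain genes related to human MFAP4, a glycoprotein of the extracellular matrix. It read 7.63, 8.59, 7.87 and 7.47 in Nadia and 4.79, 4.45, 4.53 and 4.55 in Scientific Hatchery. The Hatchery values lay near the low end of the scale and the Nadia values well above it. The gene rose by 3.38 (SE 0.24, adjusted p = 0.0018) and passed with each array left out (adjusted p up to 0.014). Its means in Pargana North (5.03) and Transgenic Mosaic 1 (4.77) were close to that of Scientific Hatchery (4.58). Similar copies in this family may share probes.

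3 further genes that rose are known in mammals mainly from germ cells. znf541, a zinc finger gene of male meiosis in mouse, read 7.73, 7.48, 6.98 and 6.64 in Nadia and 4.79, 4.59, 5.14 and 5.10 in Scientific Hatchery, a difference of 2.32 (SE 0.27, adjusted p = 0.024). PABPC1L, a poly(A)-binding protein of mammalian oocytes, read 6.62, 6.77, 6.66 and 6.52 in Nadia and 4.84, 5.18, 5.20 and 5.40 in Scientific Hatchery, a difference of 1.55 (SE 0.12, adjusted p = 0.0036). FHL5, a LIM-domain cofactor of CREM in mammalian testis, read 6.62, 6.69, 6.78 and 6.33 in Nadia and 4.89, 5.33, 5.51 and 5.40 in Scientific Hatchery, a difference of 1.42 (SE 0.13, adjusted p = 0.0072). In all 3 the Nadia fish lay above the Hatchery fish, with every Hatchery value below 6. The call of PABPC1L held with each array left out (adjusted p up to 0.038), that of FHL5 was lost without Hatchery M57 (adjusted p = 0.065) and that of znf541 in 6 of 8 such fits (adjusted p up to 0.14). FHL5 also did not pass in limma fits of all 16 midbrain arrays (adjusted p = 0.22) or all 31 arrays (adjusted p = 0.12). Its values in Transgenic Mosaic 1 ran from 4.92 to 7.90, across the range of both Nadia and Scientific Hatchery. None of 29 genes of sex steroids and sex determination passed (median difference -0.02). The members with the smallest p went in opposite directions. PIWIL1 was lower in Nadia, at -0.81 (SE 0.23, adjusted p = 0.28), and ESR2 higher, at 0.68 (SE 0.21, adjusted p = 0.31). The groups overlapped for both.

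mchr2b encodes a receptor for melanin-concentrating hormone, a hypothalamic peptide that acts on feeding in mammals and on skin colour in fish. Its values were 6.46, 7.15, 7.02 and 7.02 in Nadia and 8.14, 8.32, 8.75 and 8.54 in Scientific Hatchery, the Nadia fish being low. The gene fell by 1.43 (SE 0.17, adjusted p = 0.024), a call lost in 6 of 8 fits with an array left out (adjusted p up to 0.14). The peptide gene pmchl, chosen after its values were seen, read 10.65 to 12.88 in 7 of the fish and 4.79 in Hatchery M57. Its difference was 1.98 (SE 1.35, adjusted p = 0.67) with all fish and -0.59 without Hatchery M57. MCHR1, another receptor gene for the hormone that was likewise chosen afterwards, differed by 0.18 (SE 0.10, adjusted p = 0.61).

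Hatchery M57 was low in the whole group of hypothalamus and habenula genes: their mean level was 7.93 in that array and 9.40 to 10.15 in the other 7. None of the 25 measured passed, and their median difference was 0.44. HCRT, which encodes the wakefulness peptide hypocretin, differed by 0.63 (SE 0.20, adjusted p = 0.31) and rx3, a hypothalamic homeobox gene, by 1.14 (SE 0.52, adjusted p = 0.49). Other marker lists stood out in other single arrays. Retina, lens and pineal genes had a mean level of 7.47 in Nadia M98 against 6.09 to 6.45 elsewhere, and pituitary hormone genes one of 7.46 in Hatchery M123 against 5.83 to 6.75 elsewhere. The 28 midbrain regional genes lay within 10.68 to 10.94 in Nadia and 10.68 to 10.88 in Scientific Hatchery, and the part of dissection borders in the calls was not tested.

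**Figure D3:**
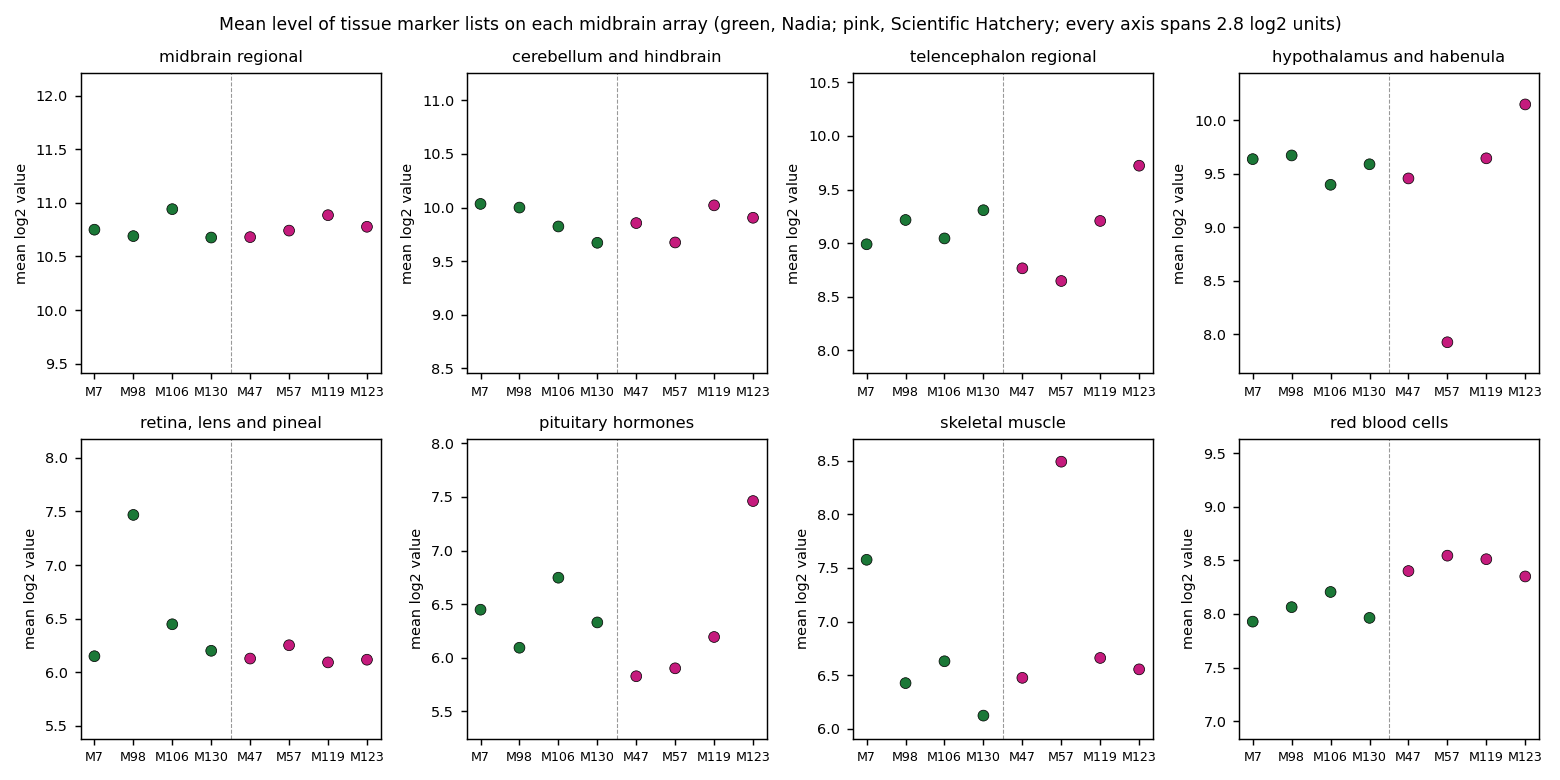
Mean log2 value of 8 lists of tissue marker genes (y axes, each spanning 2.8 units) on the 4 Nadia and 4 Scientific Hatchery midbrain arrays (x axis, by fish). Midbrain genes are level across arrays, Hatchery M57 stands low for hypothalamus and habenula genes (7.93) and high for muscle genes (8.49), and Nadia M98 stands high for eye and pineal genes (7.47).

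CA12 encodes a membrane-bound carbonic anhydrase, which interconverts carbon dioxide and bicarbonate. It read 4.94, 4.77, 5.03 and 4.97 in Nadia and 7.55, 6.22, 7.40 and 7.51 in Scientific Hatchery. Nadia fish were all near the low end, and Hatchery M47 was the lowest Hatchery fish. The difference was -2.30 (SE 0.30, adjusted p = 0.044), and the call was lost in 7 of 8 fits with an array left out (adjusted p up to 0.19). Pargana North (5.24) and Transgenic Mosaic 1 (4.91) had means near that of Nadia (4.93).

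TGM2, whose product cross-links proteins, read 7.26, 6.70, 7.41 and 7.93 in Nadia and 9.37, 9.77, 9.85 and 9.98 in Scientific Hatchery. Nadia fish were low throughout, and the gene fell by 2.44 (SE 0.27, adjusted p = 0.022), a call lost in 5 of 8 fits with an array left out (adjusted p up to 0.075). ahrrb, a repressor of the aryl hydrocarbon receptor that senses dioxins, read 4.98, 4.92, 5.18 and 5.18 in Nadia and 6.34, 6.42, 6.38 and 5.99 in Scientific Hatchery. It fell by 1.23 (SE 0.15, adjusted p = 0.027), the smallest of the 23 differences, and lost its call in 7 of 8 such fits (adjusted p up to 0.14).

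The other 10 genes that passed have a clone name or no symbol in the annotation used and fall outside the naming rule. 4 of them are given because their differences were the largest in each direction. si:dkey-19a16.7 read 10.22, 10.41, 9.06 and 10.27 in Nadia and 4.35, 4.62, 4.05 and 4.23 in Scientific Hatchery, a difference of 5.60 (SE 0.30, adjusted p = 5.0e-04). ENSDARG00000057436 followed with 4.71 (SE 0.49, adjusted p = 0.017). ENSDARG00000069936 read 5.70, 4.08, 4.78 and 4.75 in Nadia and 10.74, 10.63, 11.05 and 10.44 in Scientific Hatchery, a difference of -6.01 (SE 0.30, adjusted p = 4.5e-04), and ENSDARG00000086885 followed with -4.20 (SE 0.37, adjusted p = 0.0072). For si:dkey-19a16.7 every Hatchery fish was near the low end of the scale and every Nadia fish bright. For ENSDARG00000069936 3 of the 4 Nadia fish were near the low end and every Hatchery fish was bright. Pargana North was mixed for ENSDARG00000069936: fish M13 read 4.58, near the low end, and the other Pargana North fish 9.34 to 10.20. Transgenic Mosaic 1 ran from 9.53 to 10.97. The calls of si:dkey-19a16.7, ENSDARG00000069936 and ENSDARG00000086885 held with each array left out, and that of ENSDARG00000057436 was lost in 4 of 8 such fits (adjusted p up to 0.10).

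The means of the 2 populations outside the test were set beside those of the pair. Of the 9 genes higher in Nadia, the Pargana North and Transgenic Mosaic 1 means were both nearer to Scientific Hatchery in 6 and both nearer to Nadia in 1. Of the 14 lower in Nadia, both were nearer to Scientific Hatchery in 6 and both nearer to Nadia in 7. Only 1 of the 23, ENSDARG00000086813, which was chosen after its values were seen, had the wild Pargana North nearer to Nadia and the domesticated Transgenic Mosaic 1 nearer to Scientific Hatchery. The rule here compares group means and is a description without a test. Some means lay about midway, where nearness does not show which of the pair stood apart. For PABPC1L, Pargana North (6.01) and Transgenic Mosaic 1 (5.93) lay between Nadia (6.64) and Scientific Hatchery (5.16). For ENSDARG00000088213, chosen after its values were seen, they had 6.28 (SD 1.46) and 6.27 (SD 2.31), between 4.42 and 8.10.

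The difference between the other wild and domesticated pair, Pargana North minus Transgenic Mosaic 1, rests on 8 other midbrain arrays. It called 193 genes, 1.23% of those tested, 95 higher and 98 lower in Pargana North. None of the 23 genes passed there in the same direction and 1, mchr2b, passed in the opposite one. 11 of the 23 had the same sign, against 50.6% of all genes. mchr2b was higher in Pargana North (8.05 to 8.69) than in Transgenic Mosaic 1 (6.69 to 7.13), by 1.46 (SE 0.17, adjusted p = 0.014). The count of 193 was 39 without Mosaic M12, 64 without Mosaic M63, 67 without Mosaic M109 and at most 160 without any other array.

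The 2 wild minus domesticated differences themselves differed in 163 genes (1.04% of those tested) in limma over all 16 midbrain arrays, 87 with the higher and 76 with the lower value in the Nadia pair. For mchr2b the difference of differences was -2.95 (SE 0.26, adjusted p = 1.1e-04) and for gata1b 4.13 (SE 0.40, adjusted p = 2.5e-04). The tripartite-motif gene trim35-4, of a large family of similar genes, had -1.80 (SE 0.32, adjusted p = 0.12) in the Nadia pair and 2.58 (SE 0.20, adjusted p = 0.0025) in the Pargana pair. NEU4, a sialidase gene that acts on brain gangliosides, had 1.85 (SE 0.32, adjusted p = 0.11) and -2.62 (SE 0.23, adjusted p = 0.0054). NSL1, of the kinetochore, had 0.43 (SE 0.30, adjusted p = 0.67) and -3.84 (SE 0.33, adjusted p = 0.0048), its mean being 8.83 in Transgenic Mosaic 1 and 4.99 to 5.61 in the other populations. The genes named here had the smallest p in the test of the difference between the pairs, a choice that favours opposite signs. The differences in the 2 pairs had opposite signs for mchr2b, gata1b, trim35-4, NEU4 and NSL1, and only for mchr2b did both pass on their own. For gata1b the difference in the Pargana pair was -0.78 (SE 0.28, adjusted p = 0.24). For gata1b and NSL1 the difference was thus large in 1 pair and small in the other.

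**Figure D4:**
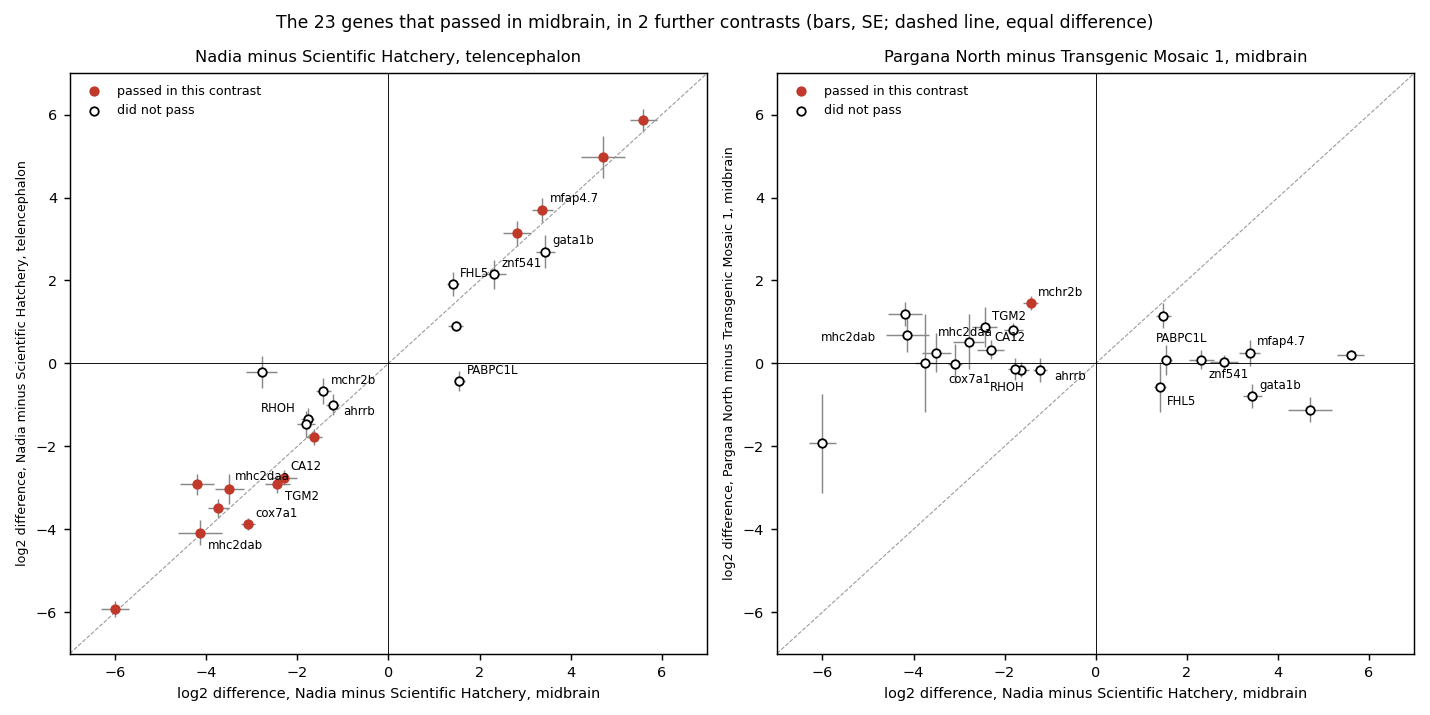
Log2 differences of the 23 genes in midbrain (x axes, Nadia minus Scientific Hatchery) against those in telencephalon of the same populations (left) and against Pargana North minus Transgenic Mosaic 1 in midbrain (right), with bars for SE and red for genes that passed in the contrast on the y axis. In telencephalon 22 of 23 genes have the same sign and 13 passed, and in the other pair 11 have the same sign and mchr2b passed in the opposite direction.

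The same populations were compared in telencephalon, on 7 other arrays. Nadia minus Scientific Hatchery called 46 genes there (0.294% of those tested), 11 higher and 35 lower. 13 of the 23 midbrain genes passed in the same direction, which is 56.5% of the 23 and 28.3% of the 46, and none in the opposite one. 22 of the 23 had the same sign, against 63.04% of all genes. The replicate numbers recur between regions, so the same fish may have given both samples, and the regions are then not independent.

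cox7a1 differed by -3.87 (SE 0.14, adjusted p = 1.7e-04) in telencephalon, with means of 8.67 in Nadia and 12.57 in Scientific Hatchery. The class II genes fell as well, with -3.02 for mhc2daa (SE 0.36, adjusted p = 0.030) and -4.08 for mhc2dab (SE 0.29, adjusted p = 0.0033). So did CA12, with -2.75 (SE 0.18, adjusted p = 0.0022), and TGM2, with -2.92 (SE 0.22, adjusted p = 0.0037), while mfap4.7 rose by 3.71 (SE 0.29, adjusted p = 0.0042). Among the named genes, values that did not pass in telencephalon were 2.70 (SE 0.39, adjusted p = 0.063) for gata1b and 2.15 (SE 0.35, adjusted p = 0.092) for znf541. Further such values were 1.92 (SE 0.29, adjusted p = 0.078) for FHL5 and -1.34 (SE 0.25, adjusted p = 0.14) for RHOH. ahrrb had -0.99 (SE 0.26, adjusted p = 0.26) and mchr2b -0.66 (SE 0.32, adjusted p = 0.50). PABPC1L, which also did not pass, follows below. Of the 13 named genes 12 had the same sign in telencephalon as in midbrain.

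PABPC1L was the exception among the named genes. Its telencephalon means were 4.51 in Nadia and 4.99 in Scientific Hatchery, a difference of -0.42 (SE 0.23, adjusted p = 0.55), against 6.64 and 5.16 in midbrain. The test of the difference between regions gave 1.97 (SE 0.26, adjusted p = 0.092). With the replicate number as a random block it gave 1.99 (SE 0.24, adjusted p = 0.038), and with the number as a fixed block an adjusted p of 0.52. Over all genes limma called 0 genes (0% of those tested) for a different population difference in the 2 regions, with 694 at an unadjusted p under 0.05. The blocked fits called 1 gene (random, PABPC1L) and 0 genes (fixed), with 1043 and 1023 at an unadjusted p under 0.05.

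Lists of genes were described by their counts and medians. Of 32 lists, 2 held a member that passed, the MHC list with mhc2daa and mhc2dab and the oxidative phosphorylation list with cox7a1. List medians lay between -0.55 (skeletal muscle) and 0.44 (hypothalamus and habenula), and array M57 of Scientific Hatchery stood apart in both, as given above. The median over all genes was 0.01.

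**Figure D5:**
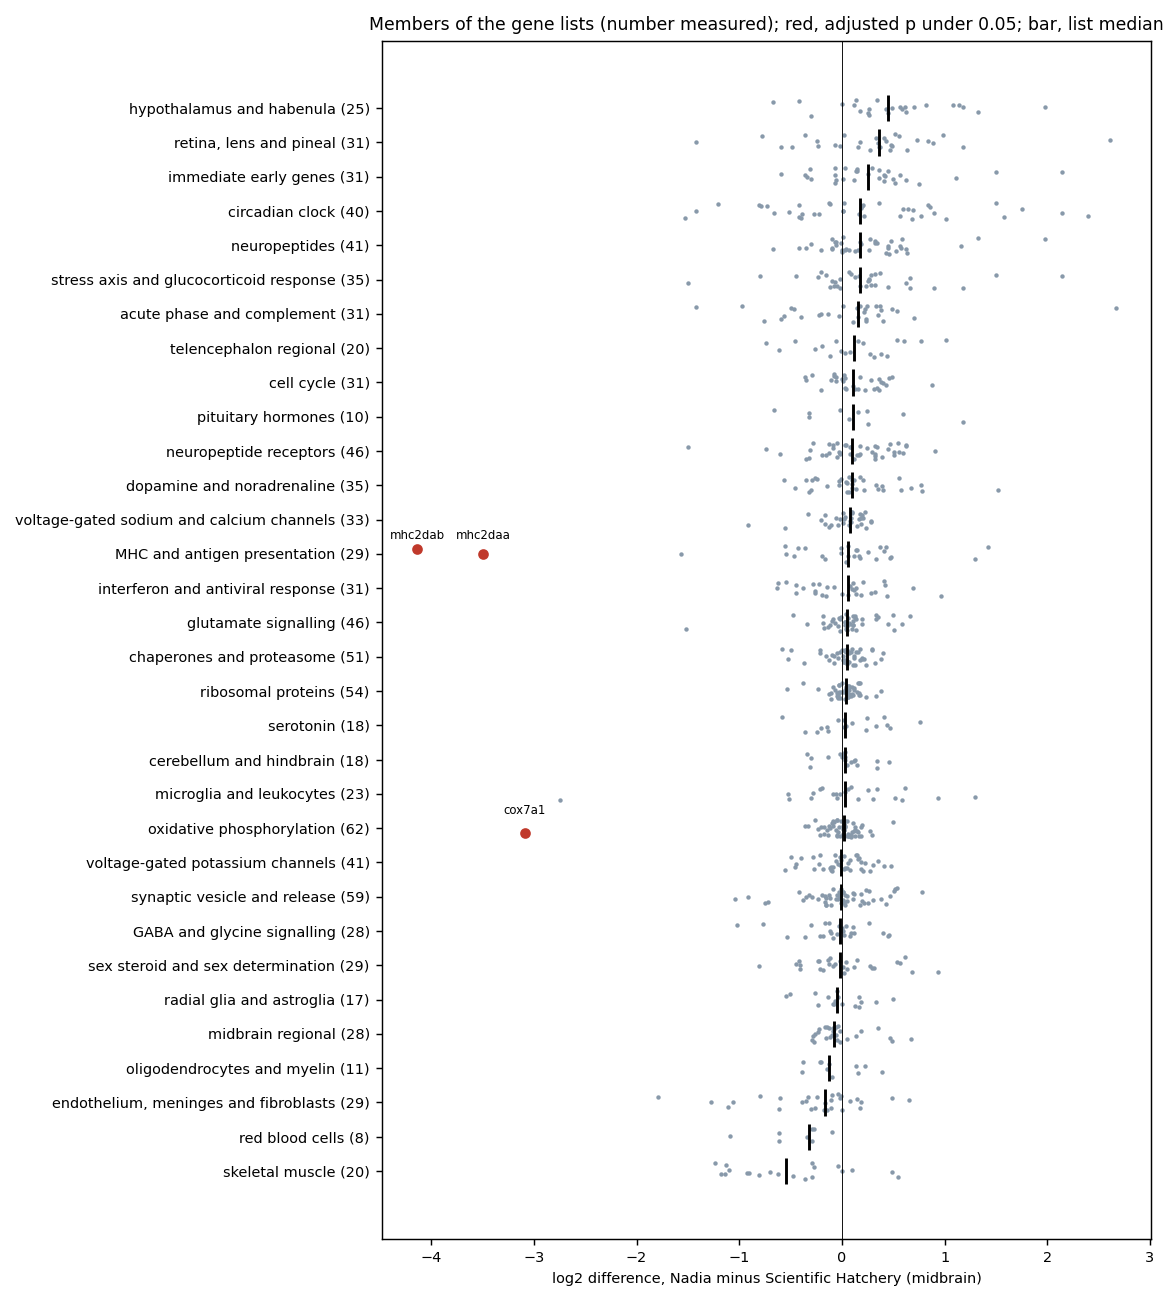
Log2 difference between Nadia and Scientific Hatchery midbrain (x axis) for each measured member of 32 gene lists (rows, with the number measured), with a bar at the list median and red for members that passed. Red points are mhc2dab, mhc2daa and cox7a1.

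No gene of the neuronal signalling lists passed. None of 28 GABA and glycine genes passed, with GAD1, which makes GABA, at -0.54 (SE 0.13, adjusted p = 0.21) and the glycine receptor gene glra4b at -0.77 (SE 0.23, adjusted p = 0.30), both without overlap between the groups. Such separation was found in 10.7% of this list and 6.63% of all genes. None of 46 glutamate genes passed, with the receptor subunit gene grin3a at 0.59 (SE 0.15, adjusted p = 0.25). Of 35 dopamine and noradrenaline genes none passed, and pitx3, a factor of midbrain dopamine neurons in mammals, was at 0.67 (SE 0.23, adjusted p = 0.34). Of 18 serotonin genes none passed, and SLC6A4, which takes serotonin back up, was at -0.59 (SE 0.21, adjusted p = 0.37). Of 59 synaptic vesicle genes none passed, with STX2 at -1.04 (SE 0.21, adjusted p = 0.16) and VAMP3 at -0.91 (SE 0.22, adjusted p = 0.21), both fusion proteins.

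Activity, clock and stress genes did not pass either. Of 31 immediate early genes, FOSL1 was at 1.11 (SE 0.20, adjusted p = 0.12) and DUSP6 at 0.75 (SE 0.18, adjusted p = 0.22). Of 40 circadian clock genes, bmal2, a partner of CLOCK, was at -1.21 (SE 0.29, adjusted p = 0.23) and rorca at -0.73 (SE 0.20, adjusted p = 0.26). Of 35 genes of the stress axis, mc2r, the receptor for ACTH, was at -1.49 (SE 0.33, adjusted p = 0.20), and hsd3b1, a steroid-synthesis gene, was at -0.80 (SE 0.18, adjusted p = 0.20). In all 6 except FOSL1 the Nadia and Hatchery values did not overlap, but these genes were taken for the smallest p of their lists. Over the whole lists 3.23% of immediate early, 10% of clock and 8.57% of stress genes did not overlap, against 6.63% of all genes. A p above the threshold does not show that the populations were alike. Of these 6 genes only mc2r passed in telencephalon of the same populations, at -2.76 (SE 0.26, adjusted p = 0.0094). It alone of the 6 also passed in the limma fit of all 16 midbrain arrays, given below.

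Glia, vessels and cell cycle gave no member that passed. Of 17 radial glia genes, VIM was at -0.50 (SE 0.19, adjusted p = 0.39) and S100B at -0.55 (SE 0.26, adjusted p = 0.50). Of 11 oligodendrocyte genes, UGT8, an enzyme of myelin lipids, was at -0.39 (SE 0.18, adjusted p = 0.51). Of 29 endothelium, meninges and fibroblast genes, col1a1a, a collagen gene, was at -1.79 (SE 0.63, adjusted p = 0.36), with 12.85 in Hatchery M57 and 9.86 to 10.55 in the other Hatchery fish. Of 31 cell cycle genes, GMNN and CDT1, regulators of replication licensing, were at 0.43 (SE 0.12, adjusted p = 0.27) and 0.88 (SE 0.26, adjusted p = 0.30). Of 54 ribosomal protein genes none passed, and the median was 0.04. Without Hatchery M57 the differences were -0.53 for col1a1a, -0.18 for VIM, 0.45 for CDT1, 0.17 for rx3, -0.29 for SLC6A4 and -0.39 for glra4b, all nearer to 0 than with all fish. With M57 left out, these are differences among females.

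Estimating the spread from all 16 midbrain arrays, with the same 2 populations compared, called 87 genes (0.556% of those tested), 50 higher and 37 lower in Nadia. 19 of the 23 genes were among them, and 68 were added, of which 51 have a gene name. FHL5 was among the genes of the 23 that did not pass there (adjusted p = 0.22). The 2 estimates share the 8 arrays and are not independent of each other. In the fit of 8 arrays the 20 added genes that the naming rule selects had adjusted p between 0.068 and 0.21. That their groups did not overlap is a condition of the rule and not a result. The values that follow are from the fit of 16 arrays.

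Higher in Nadia were crp3, related to the C-reactive protein of the acute phase (2.77, SE 0.55, adjusted p = 0.042), ELAPOR1, a membrane protein of endosomes and lysosomes (2.39, SE 0.31, adjusted p = 0.0025), and NEU4 (1.75, SE 0.33, adjusted p = 0.030). EHD2, an ATPase of caveolae, differed by 1.48 (SE 0.24, adjusted p = 0.012), and MFAP4, of the same family as mfap4.7, by 1.33 (SE 0.23, adjusted p = 0.021). LDB2, a partner of LIM-homeodomain factors, differed by 1.25 (SE 0.23, adjusted p = 0.028). The bitter taste receptor gene tas2r200.1, of a family of similar copies, differed by 1.78 (SE 0.31, adjusted p = 0.023). zc2hc1c read 7.39, 7.61 and 8.14 in Hatchery M57, M47 and M123 and 11.1 in Hatchery M119, against 11.2 to 11.9 in Nadia, so a single Hatchery fish had a value like that of Nadia.

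Lower in Nadia were NAALAD2, a peptidase related to the one that splits the neuropeptide N-acetylaspartylglutamate (-1.59, SE 0.25, adjusted p = 0.0097), and synprb, a synaptoporin of synaptic vesicles (-1.26, SE 0.25, adjusted p = 0.039). CLDN2, a tight junction claudin, differed by -1.25 (SE 0.18, adjusted p = 0.0056) and slco2b1, an organic anion transporter, by -1.46 (SE 0.28, adjusted p = 0.035). KLHL41, known from muscle, differed by -1.66 (SE 0.25, adjusted p = 0.0094) and the stress-responsive NDRG1 by -1.70 (SE 0.28, adjusted p = 0.015). The corticotropin receptor mc2r differed by -1.53 (SE 0.31, adjusted p = 0.045) and the finTRIM gene ftr89 by -1.63 (SE 0.31, adjusted p = 0.033). Of the 20 genes, crp3 (2.63, SE 0.45, adjusted p = 0.044) and NAALAD2 (-1.36, SE 0.15, adjusted p = 0.012) also passed in the same direction for Pargana North minus Transgenic Mosaic 1, and NEU4 and trim35-4 passed in the opposite direction, with the values given above.

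Some of the genes called in either fit lie next to or near each other. Of 91 such genes 63 were matched to the RefSeq gene table of assembly GRCz12tu, which is not the build of the array's annotation and was used for gene order only. Pairs at most 10 genes apart were 6: si:dkey-19a16.7 with zgc:171490, tas2r200.1 with tas2r200.2, gzm3 with gzm3.3, ELAPOR1 with si:ch211-163l21.7, RHOH with n4bp2, and CA12 with NEIL1. In the fit of 16 arrays both genes of a pair differed in the same direction in 5 pairs. CA12 and NEIL1 differed in opposite directions (-2.27 and 1.07). These pairs are named because the annotation places them together. The number of such pairs among genes drawn at random is not given, so the 6 pairs are a description. By their symbols tas2r200.1 and tas2r200.2 are copies of a family, as are gzm3 and gzm3.3, and such copies may share probes.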

How the data were processed

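The values are the log2 expression values deposited by the authors, made with RMA and tied to genome build Zv9, per the submitters' processing notes. Their range set the scale as log2. Per the labels' protocols, Trizol RNA of individual fish was made into cDNA, labelled with Cy3 and hybridized to NimbleGen arrays of 1 colour. The sources used here give neither hybridization batches nor dissection borders. The number of arrays limits the precision. A mismatch between a population's sequence and a probe cannot be told apart from a lower transcript level.

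Of its rows, 15648 name a gene, and the remaining 1 (0.00639%) stayed out of the fits. Symbols were found for 13251 gene IDs and not for 2397. Symbols in capitals follow the human gene, and as 1559 genes share theirs with another, TGM2 stands for 1 of several copies. No rescaling and no filter on dim genes was applied.

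limma 3.58.1 in R 4.3.3 (statmod 1.5.0) was fitted to the 8 arrays with population and sex (5 residual degrees of freedom, prior 2.79), and likewise to the 7 telencephalon arrays and to the 8 arrays of the other pair. Differences between differences were tested as contrasts in joint fits. The threshold was a Benjamini-Hochberg adjusted p under 0.05 over all genes. Named are called genes without overlap whose symbol is not a clone or locus name, at most 15 in each direction, list members that passed and at most 2 others with the smallest p, 10 genes in each direction of the fit of 16 arrays, and 5 for the difference between the pairs. Genes outside this rule are marked where they appear. Of the genes that the rule selects, 2 are not reported here. The comparison, the 32 gene lists and the tests were chosen with earlier results of these data known. Fits were tested on simulated data.

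A midbrain and a telencephalon array share each of 7 replicate numbers in the labels. Their deviations from group means correlated between 0.12 and 0.54 in all 7 pairs, so the numbers were taken to pair samples, and 5 of 7 midbrain arrays correlated best with their own number. Alternatives were other sets of arrays, no sex term, females only, trend and robust moderation, array weights, no dim genes, other scalings, other thresholds, each array left out, and replicate numbers as a block.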

Additional observations from a re-analysis of the deposited data

Results flagged for a closer look

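In groups of 4 fish, 16 of 214 groups held a fish far from the other 3, for 107 genes, namely those that passed, those chosen from the lists and from the fit of 16 arrays, and their partner genes; chance flags about 5% of groups. Among the genes that passed, mhc2daa was low in Nadia M106 (6.80, others 7.94 to 8.11), CA12 in Hatchery M47 (6.22, others 7.40 to 7.55) and si:dkey-19a16.7 in Nadia M130 (9.06, others 10.22 to 10.41). Among the immune genes, mhc1uba was high in Hatchery M47 (11.02, others 4.24 to 4.72), cd74a low in Hatchery M57 (12.96, others 13.16 to 13.20), SPI1 low in Nadia M98 (10.33, others 10.63 to 10.65), and ctss2.1, a cathepsin gene, high in Hatchery M119 (8.11, others 7.27 to 7.39). In the same fish, Hatchery M119, c8b, of the complement system, was low (10.91, others 11.10 to 11.12) and the glial gene S100B high (13.62, others 13.32 to 13.36). Hatchery M57 was high for the tropomyosin gene tpma (10.26, others 9.28 to 9.42) and for RPL31 (10.59, others 10.15 to 10.20), and low for CLDN2 (8.60, others 9.11 to 9.20). Other single fish were Nadia M106, high for pitx3 (6.73, others 5.98 to 6.09), Nadia M130, high for the claudin CLDN19 (10.64, others 9.65 to 9.70), Nadia M98, low for ccdc50b (8.48, others 9.39 to 9.43), and Hatchery M123, high for trim35-4 (8.95, others 7.72 to 7.92).

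The wild minus domesticated difference of the Nadia pair differed from that of the Pargana pair, by the limma test of the difference, for trim35-4 (-4.41), mchr2b (-2.95), gata1b (4.13), NEU4 (4.37) and NSL1 (4.31), the values being log2 differences of differences.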

How the results depend on the processing

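The count of 23 genes moved by more than 1.5 times under 4 settings: it was 87 with all 16 midbrain arrays, 68 with all 31 arrays (each with 19 of the 23), 11 at an adjusted p under 0.01 and 35 at one under 0.1, a threshold chosen after seeing the data. The other settings gave 16 (females only, with 10 of the 23), 18 (without the dimmest genes, some of the 23 among them), 23 (at least 2-fold), 26 (array weights), 28 and 29 (the scalings), 31 (trend and robust moderation) and 33 (no sex term). Leaving out each array gave 16 to 27 calls. The telencephalon count of 46 was 29 to 37 with an array left out, the lowest without Hatchery M57, and the count of 193 for Pargana North minus Transgenic Mosaic 1 was 39 to 160, the lowest without Mosaic M12. The count of 0 for the difference between regions was 1 with the replicate block as a random term and 0 with it as a fixed one, and the block changed no other call tested. No called gene reversed its direction. Of the genes that did not pass, POMC went from 1.18 to -0.076 and pmchl from 1.98 to -0.59 without Hatchery M57, the fish with the lowest pmchl. The fit of females only gave the same differences. Both rest on the same females, as M57 was the only Hatchery male, so the 2 settings are not separate checks. Leaving out each array gave -0.076 to 1.81 for POMC and -0.59 to 2.91 for pmchl. Other causes were not tested.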
